A study of Mus musculus with 8 samples.

Results

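The Siglecs are a family of membrane lectins that bind sialic acid, and 7 of their genes were followed here: Siglec1, Siglech, Cd33, Siglece, Siglecf, Cd22 and Siglecg. The genes were chosen by name. Each of the 7 had 1 row among the 13786 protein-coding genes of the deposited count table. Only genes with a row were taken, and no further filter was applied. Siglec15 and Siglecl2 had no row. Mag, a Siglec gene with a row, was not among the 7 and is given below as a neighbor of Cd22. The table holds RNA sequencing of spleen cells selected for CD11c, a marker abundant on dendritic cells, in 4 C57BL/6 and 4 B6.SLE123 females of 7 weeks, none of them treated. B6.SLE123 is a lupus-prone strain that carries the Sle1, Sle2 and Sle3 intervals of the NZM strain on a C57BL/6 background, and Sle3 lies on chromosome 7. C57BL/6 mice served as controls. By the study's account, kidney dysfunction, high blood pressure and raised lupus biomarkers are absent at this age, while dendritic cells have already accumulated in the spleen. The genotype field of the sample labels counts upwards from mouse to mouse within each strain, so the strain was taken from the sample names.

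Siglecs are expressed mainly on leukocytes. Their outermost immunoglobulin domain binds sialic acids on the same or on neighboring cells, and most members carry tyrosine motifs in the cytoplasmic tail that recruit the phosphatase encoded by Ptpn6 and dampen activating receptors. Siglec-H lacks such motifs and signals instead through the adaptor DAP12, the product of Tyrobp, and sialoadhesin, the product of Siglec1, acts mostly as an adhesion and uptake receptor of macrophages. CD22 and Siglec-G restrain B cell receptor signaling, and Siglec-E, Siglec-F and CD33 belong to a group of myeloid Siglecs whose genes form a cluster.

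Siglec1 lies on chromosome 2 from 131069220 to 131086765 in mm10. The other 6 genes lie on chromosome 7. Cd22 spans 30865402 to 30880342 and Siglech spans 55768178 to 55778925. Between them, Siglecf (43351341 to 43359531), Siglecg (43408204 to 43418358), Cd33 (43524216 to 43544428) and Siglece (43651070 to 43660161) lie within 309 kb. Siglecf, Siglecg and Siglech are on the plus strand and the others on the minus strand. GENCODE M21 gives all 7 the same coordinates as the table. Of the 7, Cd22 was the one overlapped by another annotated gene, the antisense gene Gm29439. The libraries were stranded per the labels, but whether counting used the strand was not given in the sources used here, so reads of Cd22 and Gm29439 may not be separated.

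The sequences before the starts of Cd33 and Siglecf are shown because these genes are close relatives in 1 cluster and moved in opposite directions between the strains. Each is the 250 bases upstream of the RefSeq start on GRCm38.p6, the assembly of mm10, from 5′ to 3′ on the strand of the gene. Capitals mark the 1 run of at least 11 bases that both windows share. The Cd33 window is chr7:43533172-43533421, minus strand, and the Siglecf window is chr7:43351091-43351340, plus strand.
Cd33: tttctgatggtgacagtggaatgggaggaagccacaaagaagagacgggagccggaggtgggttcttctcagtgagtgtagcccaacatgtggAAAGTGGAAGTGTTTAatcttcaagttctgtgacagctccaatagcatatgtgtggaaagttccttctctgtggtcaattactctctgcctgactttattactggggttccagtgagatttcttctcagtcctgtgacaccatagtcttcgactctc
Siglecf: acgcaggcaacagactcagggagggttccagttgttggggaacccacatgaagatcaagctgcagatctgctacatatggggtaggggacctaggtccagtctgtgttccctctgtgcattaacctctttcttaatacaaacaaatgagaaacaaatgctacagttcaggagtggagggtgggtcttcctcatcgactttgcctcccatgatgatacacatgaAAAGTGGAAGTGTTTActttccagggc
The shared run is 16 bases long. It lies 157 to 142 bases before the RefSeq start of Cd33 and 27 to 12 bases before that of Siglecf. Of 32851 promoter windows, 2 held it on either strand, those of Cd33 and Siglecf. The RefSeq start of Cd33 lies 11257 bases inside the gene as the count table bounds it, so part of its reads can come from transcripts with another start. Of the 7 genes, 6 had a RefSeq promoter window, and Siglec1 had none. No 2 other windows of the 6 shared a run of more than 10 bases.

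Short motifs were searched on both strands of the same 6 windows. The PU.1 sequence GAGGAAGT was in 0 of the 6 windows and in 2.44% of all windows. Only exact letters were counted, so a window without a match can still hold a near match, such as GAGGAAGC before Cd33. The interferon response core GAAANNGAA was in 0 of the 6 and in 7.13% of all. The RUNX core TGTGGT had 1 match each for Cd33 and Siglech and was in 14% of all windows. The E-box CANNTG had 6 matches for Siglecf, 3 for Siglech, 2 for Cd33, 2 for Cd22 and 0 for Siglece and Siglecg, and it was in 66.2% of all windows. No RUNX match overlapped an E-box match. A match describes the letters of the reference window only, and these windows were not read from B6.SLE123 DNA.

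Counts per mouse summed to between 25563070 and 37367094, and no library stood apart in depth. Mice of a strain differed by more than counting noise (chi-square over degrees of freedom 5.15 to 19.7 for each pair), and each mouse was 1 replicate. The conventional dendritic cell markers were abundant, with summed levels of 12410 to 14270 CPM (counts scaled to library size) in C57BL/6 mice and 15320 to 16150 CPM in B6.SLE123 mice, and 6 of 7 rose. Other cells were present too. The red pulp macrophage markers summed to between 11700 and 14970 CPM in C57BL/6 mice and to between 1797 and 3374 CPM in B6.SLE123 mice, so the preparations differed in macrophage RNA as well as in strain.

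All 7 Siglec genes differed between the strains in edgeR's quasi-likelihood test, with p adjusted over 13786 genes and a threshold of 0.05. This count, like every count of list genes given here, has to be read against the 53.4% of all genes that passed the same threshold. Siglech, Cd33 and Cd22 rose in B6.SLE123 mice (3 of 7, where 26.7% of all genes rose), and Siglec1, Siglece, Siglecf and Siglecg fell (4 of 7, where 26.6% of all genes fell). Siglec1 and Cd33 changed more than 2-fold, as did 11.1% of all genes. For 6 of the 7, every mouse of one strain was above every mouse of the other, which was so for 48.9% of all genes. The median log2 fold change, B6.SLE123 over C57BL/6, was -0.59 over the 7 genes and -0.002 over all 13786. The 7 values ran from -1.77 for Siglec1 to 2.07 for Cd33, and their median is the value of Siglece, not a shared shift.

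**Figure D1:**
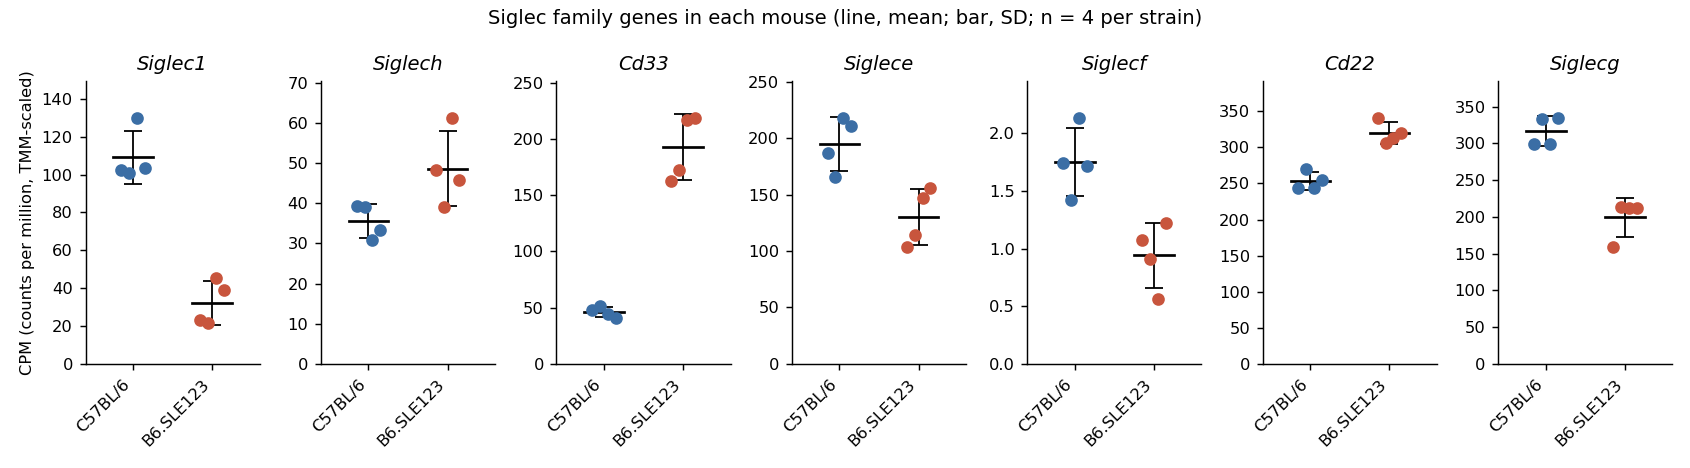
TMM-scaled CPM (vertical axis, from 0) of the 7 Siglec genes in each of 4 C57BL/6 (blue) and 4 B6.SLE123 (red) mice, with the mean (line) and SD (bar). The strains are separate for every gene but Siglech, where the lowest B6.SLE123 mouse (39.0 CPM) lies just below the 2 highest C57BL/6 mice (39.2 CPM each).

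Siglec1, the sialoadhesin gene of marginal metallophilic and other tissue macrophages, had 102, 101, 130 and 103 CPM in the 4 C57BL/6 mice. In the 4 B6.SLE123 mice it had 23.1, 21.3, 45.5 and 38.8 CPM. The strains did not overlap, and the highest B6.SLE123 mouse, at 45.5 CPM, was well below the lowest control, at 101 CPM. The mean fell from 109 ± 13.9 to 32.2 ± 11.8 CPM (SD, n = 4), a log2 fold change of -1.77 (standard error of the fold change, SE, 0.21; edgeR adjusted p = 4.92e-05). B6.SLE123 mice varied more among themselves for this gene than for any other member, with a coefficient of variation of 36.8% against 12.7% in C57BL/6 mice.

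The macrophage lists moved the same way. All 10 red pulp macrophage markers fell (median log2 fold change -2.42), among them Spic, the transcription factor of red pulp macrophages (-2.73), Slc40a1, the iron exporter (-2.68), and Treml4, the smallest fall (-1.05). Of 7 marginal zone and metallophilic macrophage markers in the table, 6 fell (median -2.41), among them Fcna (-2.71) and the scavenger receptor gene Marco (-2.10), and Cd209d had 0.06 (adjusted p = 0.808 by edgeR). The summed levels of this second list did not overlap, with 1260 to 1606 CPM in C57BL/6 and 165 to 330 CPM in B6.SLE123 mice. None of the markers in either list was at 0 in any mouse. Since RNA came from bulk cells, fewer cells of a type and less RNA per cell cannot be told apart.

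Siglec1 was also set against the summed counts of each list. Per count of the red pulp list, Siglec1 was at 0.783% to 0.868% in C57BL/6 mice and at 0.980% to 1.52% in B6.SLE123 mice. In B6.SLE123 mice the log2 ratio was higher by 0.53 (p = 0.0286 by exact permutation, two-sided, which is as low as 4 mice against 4 can give, and adjusted p = 0.0357 over the 10 ratios tested). Against the marginal zone and metallophilic list the ratio was higher by 0.69 (exact permutation test, p = 0.0286, adjusted p = 0.0357). When a list was summarized by the mean of its log2 CPM values instead of its summed counts, neither call held. The red pulp difference was then 0.47 (exact permutation test, p = 0.0286, adjusted p = 0.0571) and the marginal zone and metallophilic difference 0.10 (exact permutation test, adjusted p = 0.929). Single markers differed, and Adgre1 (-1.66), Treml4 (-1.05) and Cd209b (-1.16) had smaller falls than Siglec1 itself. Fcna and Cd5l made up 45.9% and 35.2% of the summed counts in C57BL/6 mice.

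Siglech, a marker of plasmacytoid dendritic cells, had 39.2, 39.2, 30.8 and 33.2 CPM in C57BL/6 mice and 48.4, 39.0, 61.3 and 45.7 CPM in B6.SLE123 mice. This was the one member whose strains overlapped, by 1 B6.SLE123 mouse. The mean was 35.6 ± 4.27 against 48.6 ± 9.31 CPM (SD, n = 4), and the log2 fold change was 0.45 (SE 0.13, edgeR adjusted p = 0.0117). The log2 fold change was 0.32 without B6.SLE123 mouse 3, the highest (adjusted p = 0.0229 by edgeR).

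Of 12 other plasmacytoid dendritic cell markers, 5 fell, 1 rose and 6 did not pass the test, with a median log2 fold change of -0.14. Pacsin1 rose by 0.95. Cox6a2 fell by 2.71, Klk1 by 1.51 and Ly6d by 0.59. Spib, a transcription factor these cells share with B cells, fell by 0.34. Tcf4, which maintains plasmacytoid identity, had -0.15 (adjusted p = 0.0694 by edgeR), and Bst2 had 0.13 (adjusted p = 0.0536 by edgeR). Summed over the list, C57BL/6 mice had 581 to 612 CPM and B6.SLE123 mice 465 to 549 CPM, with no marker at 0. Per count of this list, Siglech was higher in B6.SLE123 mice by 0.64 on the log2 scale (two-sided exact permutation, p = 0.0286, adjusted p = 0.0357), from 5.17% to 6.74% in controls and from 8.39% to 11.4% in B6.SLE123 mice. With the mean of log2 CPM values the difference was 0.79, and its adjusted p no longer passed (exact permutation test, p = 0.0286, adjusted p = 0.0571).

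Cd33, which encodes a myeloid Siglec, showed the largest difference of the family. It had 48.0, 51.1, 44.3 and 40.7 CPM in C57BL/6 mice and 163, 173, 217 and 219 CPM in B6.SLE123 mice. The lowest B6.SLE123 mouse was at more than 3 times the highest control. The mean rose from 46.0 ± 4.52 to 193 ± 29.1 CPM (SD, n = 4), a log2 fold change of 2.07 or 4.19-fold (SE 0.11, edgeR adjusted p = 2.65e-07). By p-value it was number 52 of 13786 genes.

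Siglece, which encodes an inhibitory Siglec of neutrophils, monocytes and macrophages, went the other way. C57BL/6 mice had 186, 165, 218 and 210 CPM and B6.SLE123 mice had 103, 114, 147 and 156 CPM, without overlap. The mean was 195 ± 23.9 against 130 ± 25.1 CPM (SD, n = 4), and the log2 fold change was -0.59 (SE 0.13, edgeR adjusted p = 0.00285).

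Siglecf, which encodes the Siglec of eosinophils and alveolar macrophages, was near the limit of detection. Its raw counts were 46, 37, 70 and 52 in C57BL/6 mice and 34, 34, 19 and 31 in B6.SLE123 mice. Scaled by library, this was 1.75 ± 0.29 against 0.943 ± 0.28 CPM (SD, n = 4), without overlap. The log2 fold change was -0.92 (SE 0.24, edgeR adjusted p = 0.00828), the least precise of the family.

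Markers of the cells that carry these myeloid Siglecs did not move as 1 group. Of 9 neutrophil markers in the table, 3 rose, 3 fell and 3 did not pass. The granule genes Ltf, Ngp and Camp rose from means of at most 0.633 CPM, and Csf3r (-1.61), Mmp9 (-2.17) and Retnlg (-1.17) fell. The defining neutrophil genes S100a8 and S100a9 were at 2.97 and 4.41 CPM in C57BL/6 mice, far below Siglece, and none of the 9 was at 0. Of 8 monocyte markers, 3 fell, Fcgr1 (-2.32), Treml4 (-1.05) and Nr4a1 (-0.88), while Ly6c2 (-0.09) and Ccr2 (-0.29) did not pass the test (adjusted p = 0.600 and 0.0637 by edgeR). Summed levels were 129 to 140 against 35.7 to 58.7 CPM for the neutrophil list and 781 to 842 against 394 to 478 CPM for the monocyte list. Of 6 eosinophil markers in the table, 4 fell and 1, Prg2, rose. Epx, Ear1 and Ear6 had no row. Il5ra, Prg2 and Alox15 were low, with means of 3.52, 0.997 and 0.310 CPM in C57BL/6 mice. The sum was 350 to 473 CPM in C57BL/6 mice and 72.4 to 126 CPM in B6.SLE123 mice, of which Ccr3 alone gave 76.2% in C57BL/6 mice.

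Relative to the summed monocyte markers, Cd33 was higher in B6.SLE123 mice by 2.94 on the log2 scale, and relative to the neutrophil markers by 3.58 (exact two-sided permutation tests, p = 0.0286 and adjusted p = 0.0357 for each). With the mean of log2 CPM values these differences were 2.60 and 2.19 (exact permutation tests, p = 0.0286 and adjusted p = 0.0571 for each). Siglece was higher by 0.93 relative to the neutrophil list (exact permutation test, p = 0.0286, adjusted p = 0.0357) and by 0.29 relative to the monocyte list (exact permutation test, p = 0.143, adjusted p = 0.159). With the mean of log2 CPM values as the summary, the Siglece difference for the neutrophil list was -0.47 on the log2 scale (exact permutation test, adjusted p = 0.381) and for the monocyte list -0.055 (exact permutation test, adjusted p = 0.943). Csf3r and Mmp9 made up 57.5% and 35.3% of the summed neutrophil counts in C57BL/6 mice. Treml4 and Nr4a1 made up 41.5% and 35.7% of the summed monocyte counts in these mice, and Treml4 is also in the red pulp macrophage list. Siglecf was higher by 1.12 relative to the eosinophil list (exact permutation test, p = 0.0286, adjusted p = 0.0357). Its difference was 0.015 with the mean of log2 CPM values (exact permutation test, adjusted p = 0.943).

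Cd22 and Siglecg encode the Siglecs of B cells, and their RNA moved in opposite directions. Cd22 had 243, 269, 244 and 255 CPM in C57BL/6 mice and 341, 307, 313 and 320 CPM in B6.SLE123 mice. The strains did not overlap, and the gene varied least of the family, with a coefficient of variation of 4.89% in C57BL/6 and 4.62% in B6.SLE123 mice. The mean rose from 253 ± 12.4 to 320 ± 14.8 CPM (SD, n = 4), a log2 fold change of 0.34 (SE 0.05, edgeR adjusted p = 0.000167).

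Siglecg had 299, 333, 299 and 334 CPM in C57BL/6 mice and 160, 213, 212 and 212 CPM in B6.SLE123 mice. Every B6.SLE123 mouse was lower, and mouse 1 lay below the 3 others, which were nearly equal. The mean fell from 316 ± 20.1 to 199 ± 26.6 CPM (SD, n = 4), a log2 fold change of -0.67 (SE 0.09, edgeR adjusted p = 0.000101). Without B6.SLE123 mouse 1 the log2 fold change was -0.58 (adjusted p = 1.95e-05 by edgeR).

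Of 10 B cell markers, 8 fell and 0 rose, with a median log2 fold change of -0.64. Fcer2a (-1.07) and Fcrla (-1.02) were among those that fell. Ms4a1 (-0.09) and Blk (0.07) did not pass the test (adjusted p = 0.322 and 0.520 by edgeR). The list summed to 576 to 684 CPM in C57BL/6 and 388 to 485 CPM in B6.SLE123 mice, and no marker was at 0. Cd22 amounted to 35.6% to 42.2% of this sum in C57BL/6 mice and to 66.9% to 79.1% in B6.SLE123 mice, a log2 difference of 0.86 (two-sided exact permutation, p = 0.0286, adjusted p = 0.0357). With the mean of log2 CPM values it was 0.93, and its adjusted p no longer passed (exact permutation test, p = 0.0286, adjusted p = 0.0571). Siglecg amounted to 43.8% to 52.7% in C57BL/6 and 32.9% to 55.0% in B6.SLE123 mice, and the log2 difference of -0.16 was within the spread between mice (exact permutation test, p = 0.457, adjusted p = 0.457). Whether the fall of B cell markers had a part in the fall of Siglecg was not tested.

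**Figure D2:**
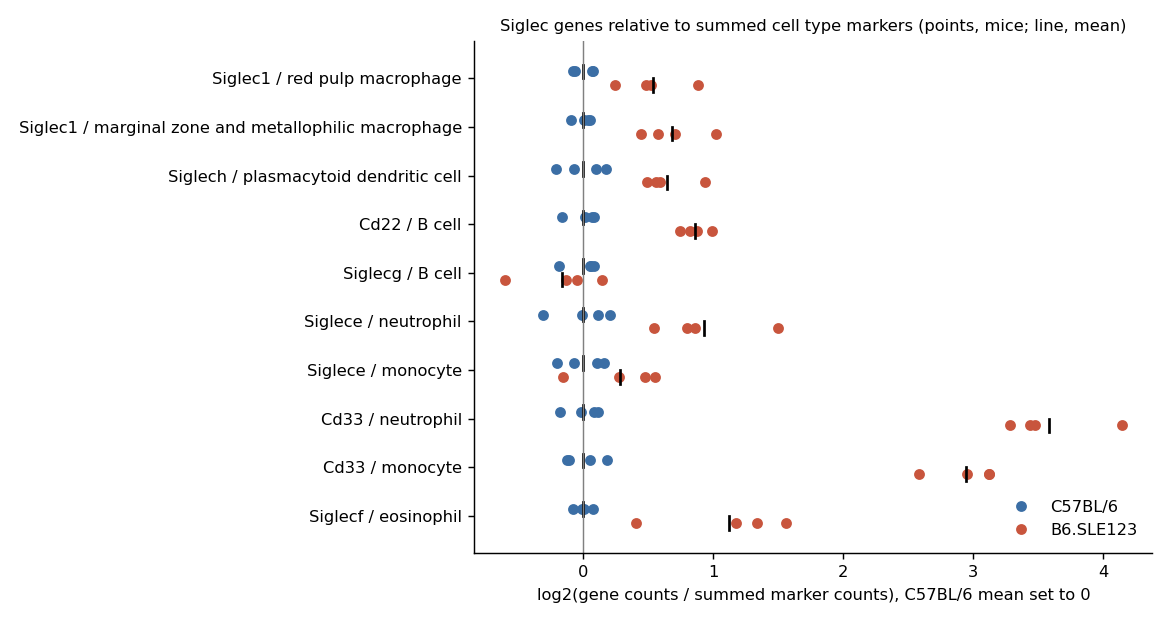
Log2 ratio of each Siglec gene's counts to the summed counts of a marker list in each mouse, with the C57BL/6 mean of each pair set to 0 (blue, C57BL/6; red, B6.SLE123; line, mean of 4 mice). The strains are separate for 8 of 10 pairs, most widely for Cd33 (2.94 and 3.58), and overlap for Siglecg with B cell and Siglece with monocyte markers.

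**Figure D3:**
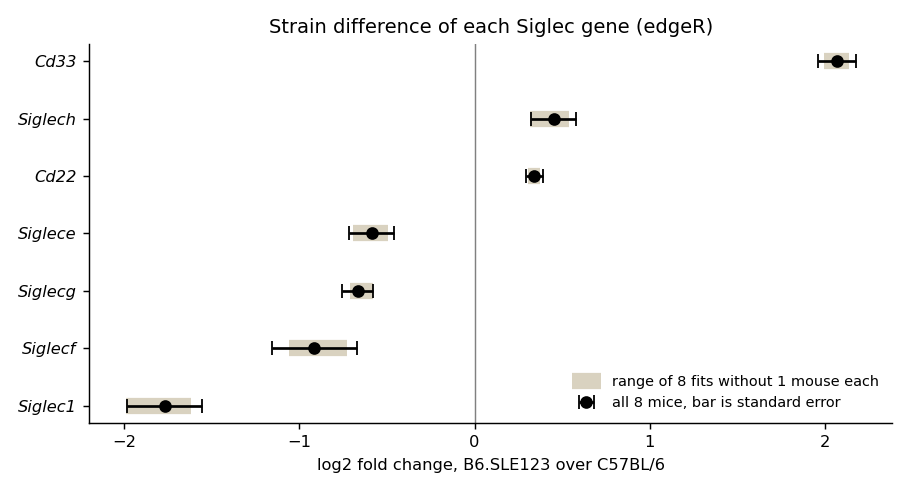
Log2 fold change, B6.SLE123 over C57BL/6, of each Siglec gene from edgeR (point) with its standard error (bar) and the range of the 8 fits that each left out 1 mouse (band). Cd33 (2.07) and Siglec1 (-1.77) lie farthest from 0, and none of the 7 bands crosses 0.

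Levels of different genes were compared per kb of merged exon. In C57BL/6 mice Siglece was highest at 106 ± 12.9 CPM per kb (SD, n = 4), followed by Siglecg at 65.8 ± 4.19, Cd22 at 50.1 ± 2.45, Siglec1 at 15.3 ± 1.94, Siglech at 10.5 ± 1.26, Cd33 at 5.92 ± 0.58 and Siglecf at 0.629 ± 0.10. No neighbors in this order overlapped between mice. In B6.SLE123 mice the order was Siglece at 70.3 ± 13.6, Cd22 at 63.5 ± 2.93, Siglecg at 41.5 ± 5.53, Cd33 at 24.8 ± 3.75, Siglech at 14.4 ± 2.75, Siglec1 at 4.50 ± 1.66 and Siglecf at 0.338 ± 0.10. Here Siglece and Cd22 overlapped and could not be ordered, and the other neighbors did not. Cd33 thus stood 6 of 7 in the controls and 4 of 7 in the lupus-prone strain, and Siglec1 moved from 4 to 6.

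The 7 genes together summed to 254 ± 10.8 CPM per kb in C57BL/6 mice and 219 ± 22.7 CPM per kb in B6.SLE123 mice (SD, n = 4). Cd33 made up 2.34% ± 0.32 of this sum in C57BL/6 and 11.3% ± 0.54 in B6.SLE123 mice (SD, n = 4). Cd22 made up 19.8% ± 1.46 and 29.2% ± 3.92, and Siglece 41.5% ± 3.63 and 31.8% ± 2.97 (SD, n = 4). These shares depend on the merged exon lengths, which count every annotated transcript.

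Within the 309 kb from Siglecf to Siglece the table holds 12 genes, of which 4 are Siglecs. Of the 8 others, 3 rose, 3 fell and 2 did not pass the test. Cd33 rose together with the zinc finger genes on its far side, Zfp658 (log2 fold change 1.16), Zfp719 (0.61) and Zfp819 (1.08). Siglecf and Siglecg fell, as did Nkg7 (-0.74) and Vsig10l (-1.04), and at the other end Ceacam18 (-1.40) fell beside Siglece. Vsig10l and Etfb overlap Gm45233, so their reads are uncertain. Etfb (-0.20) and Iglon5 (-0.92), which lie between Siglecg and Cd33, did not pass (adjusted p = 0.193 and 0.329 by edgeR).

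**Figure D4:**
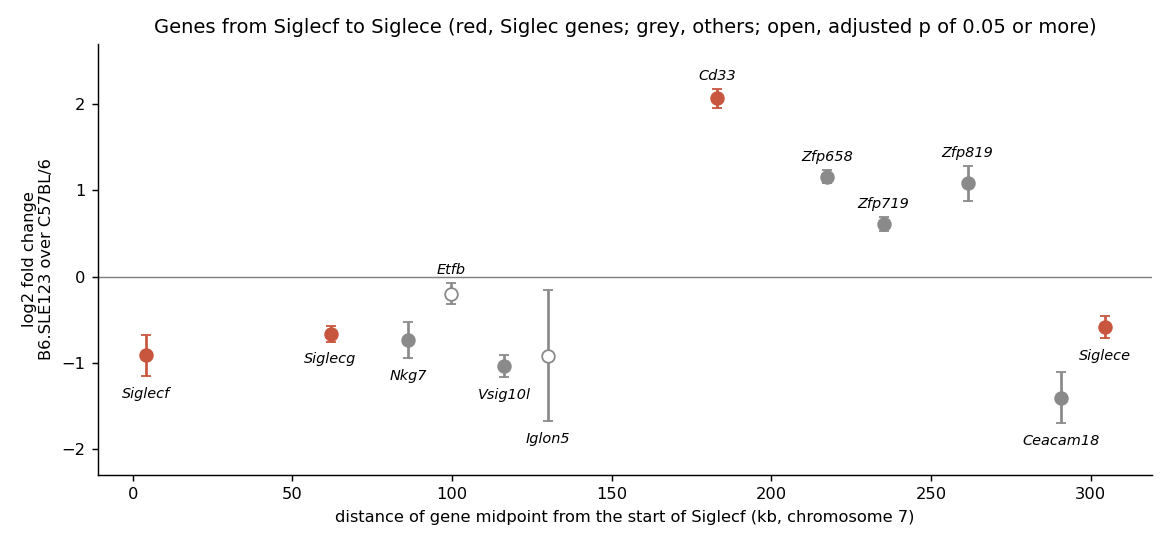
Log2 fold change, B6.SLE123 over C57BL/6, with standard error, of the 12 genes of the table from Siglecf to Siglece, by distance of the gene's midpoint from the start of Siglecf in kb. The 4 Siglec genes are red, other genes grey, and open points did not pass. Cd33 and the next 3 genes are above 0 and the 4 genes that passed before them and both at the far end are below 0.

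Genes next to the other members were compared too. Cd22 rose, while Ffar1, 3838 bases away at lower coordinates, fell from 23.4 ± 1.92 to 1.39 ± 0.37 CPM (SD, n = 4; log2 fold change -4.05, adjusted p = 3.27e-08 by edgeR). On the other side of Cd22, Mag fell from 9.38 ± 0.58 to 1.34 ± 0.42 CPM (SD, n = 4; log2 fold change -2.82, adjusted p = 1.02e-06 by edgeR). Mag encodes the Siglec of myelin-forming glia, and it was the only gene of a list of 3 other Siglecs with a row in the table. Tubgcp5, 15229 bases beyond Siglech, rose by 0.71 on the log2 scale (adjusted p = 8.48e-07 by edgeR). Adam33, 5406 bases from Siglec1, fell with it, by 2.01 on the log2 scale (adjusted p = 0.00188 by edgeR). Hspa12b, on the other side of Siglec1, had -0.17 (adjusted p = 0.752 by edgeR). Ctu1, beyond Siglece, fell by 0.72 on the log2 scale and Zfp715, before Siglecf, by 0.35. Luzp2, the nearest table gene before Siglech, was at means of 0.00960 and 0.176 CPM. Alleles of the Sle3 interval and the rest of the strain difference cannot be told apart in these samples.

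The genes that supply and read sialic acid were counted in lists. Of 12 genes of sialic acid synthesis, activation and removal in the table, 2 rose and 4 fell, against 26.7% and 26.6% of all genes. The lysosomal sialidase gene Neu1 fell from 90.4 ± 10.8 to 41.8 ± 5.16 CPM (SD, n = 4; log2 fold change -1.12), the largest difference of the list. Renbp (-0.72), the transporter gene Slc35a1 (-0.35) and the esterase gene Siae (-0.20) fell. The synthase gene Nans (0.45) and Cmas (0.17), which activates sialic acid, rose. Gne, the first step of the pathway, had 0.15 and did not pass the test.

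Of 17 sialyltransferase rows, 7 rose and 4 fell, so 64.7% passed, against 53.4% of all genes. St3gal5 (0.55), St8sia6 (0.51) and St3gal2 (0.40) rose, as did St6gal1 (0.24), whose product makes the linkage that CD22 prefers. St3gal6 fell by 0.65. St6galnac2 has 2 rows in the table, overlapping genes of 1 name with log2 fold changes of -2.54 and -3.56, and their reads are uncertain. St8sia3 had at most 1 count in each C57BL/6 mouse and at most 10 in each B6.SLE123 mouse. All the sialyltransferase genes named here, and Slc35a1, Siae, Gne and Nans, overlap other annotated genes, so part of their reads is uncertain.

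Of 14 adaptors, kinases and phosphatases, 5 rose and 6 fell, so 78.6% passed, against 53.4% of all genes. Tyrobp, through which Siglec-H signals, fell from 448 ± 10.4 to 296 ± 24.4 CPM (SD, n = 4; log2 fold change -0.60, adjusted p = 8.19e-06 by edgeR), opposite to Siglech. The kinase genes Syk (-0.41) and Lyn (-0.32) and the B cell adaptor Blnk (-1.22) fell. Ptpn11 (0.33), Inpp5d (0.13) and Socs3 (0.60) rose. Ptpn6, the phosphatase gene most tied to inhibitory Siglecs, was at 668 ± 27.6 and 628 ± 31.1 CPM (SD, n = 4), and its log2 fold change of -0.09 did not pass (SE 0.05, edgeR adjusted p = 0.152). Lyn, Ptpn6 and Ptpn11 overlap other annotated genes, as does Hmgb1.

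Of 6 genes for sialylated partners, 2 rose and 0 fell, so 33.3% passed, below the 53.4% of all genes. Cd24a, a partner of Siglec-G, rose by 0.53 and Hmgb1 by 0.23, while Spn, a partner of sialoadhesin, had 0.20 (adjusted p = 0.231 by edgeR). Of 11 genes of the type I interferon response, to which Siglec1 is known to respond, 4 fell and 1 rose, with a median log2 fold change of -0.26. Ifit3 (-0.89), Irf7 (-0.44) and Cmpk2 (-0.64) were among those that fell and Oasl1 (0.61) rose. The summed levels of this list overlapped between the strains, at 388 to 517 CPM in C57BL/6 and 277 to 450 CPM in B6.SLE123 mice.

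**Figure D5:**
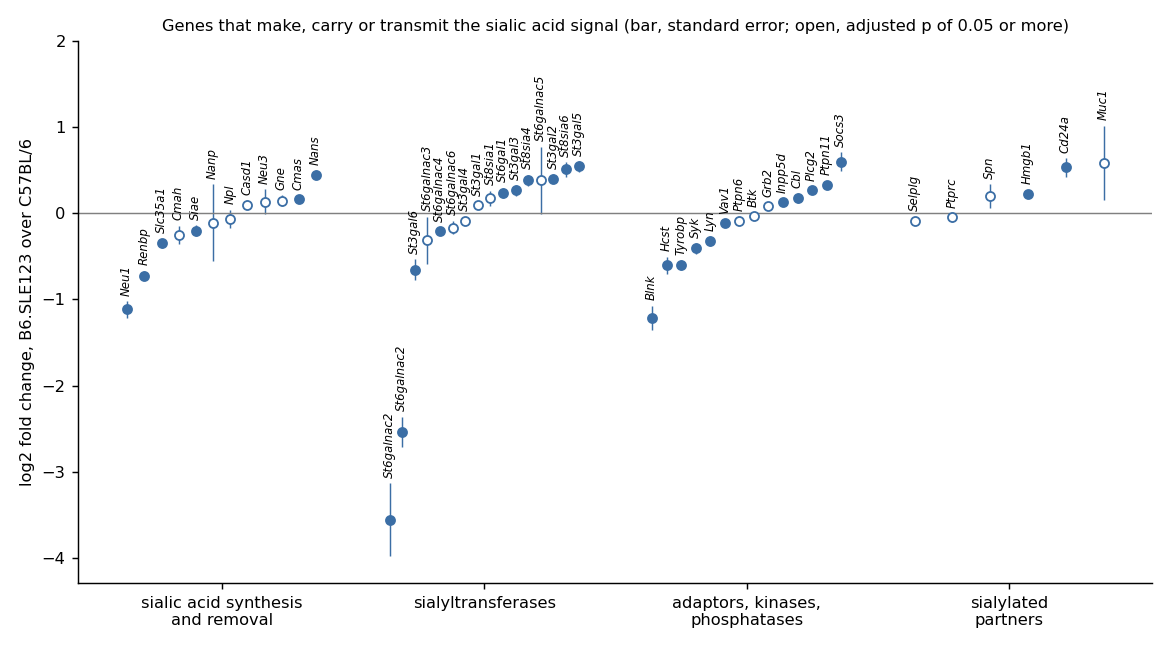
Log2 fold change, B6.SLE123 over C57BL/6, with standard error, of genes of 4 lists (filled, adjusted p below 0.05; open, 0.05 or more). St8sia3, near 0 counts in C57BL/6 mice, is not drawn. Neu1 (-1.12), Blnk (-1.22) and the 2 rows of St6galnac2 (-2.54 and -3.56) lie lowest, and Socs3 (0.60) is the highest drawn gene that passed.

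The remaining marker lists describe marker RNA in the preparations, not numbers of cells. Of 7 type 1 conventional dendritic cell markers, 5 rose and 1 fell (median log2 fold change 0.85). Of 6 type 2 conventional dendritic cell markers, 3 fell and 0 rose (median -0.35). Of 7 T cell markers in the table, Cd5 rose, Lck fell and 5 did not pass. Among the marker and interferon genes named, Fcna, Cox6a2, Klk1, Tcf4, Fcrla, Ms4a1, Lck, Irf7 and Oasl1 overlap other annotated genes. The part of these lists in the Siglec differences was not tested.

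Mice of a strain also differed among themselves, and the genes whose differences were most like those of each Siglec were listed. The measure was Pearson's r of log2 CPM over the 8 mice, with the mean of each strain subtracted, among the 10145 genes with a mean of at least 5 CPM. The 8 points share library and depth, and r values this high arise readily among so many genes, so they are descriptions. For Siglec1 these were C6, a complement gene (r = 0.984), Ptprm (0.981) and Unc5a (0.979), which all fell between the strains, with log2 fold changes of -2.48, -2.46 and -3.05. For Siglece they were Rasgef1b (r = 0.995), Cfp, the properdin gene (0.991), and Nagpa (0.980). For Cd33 they were Acvr2a (r = 0.987), Xiap (0.977) and Ogg1 (0.974), of which none rose between the strains. For Siglecg they were Rbck1 (r = 0.981), Irf9 (0.977) and Zfp512 (0.977). For Siglech they were Itga5 (r = 0.977), Atg4d (0.947) and Dtx2 (0.938). For Cd22 they were Dnajc30 (r = 0.968), Ap4s1 (0.965) and Ccdc71l (0.963), and for Siglecf Hfe (r = 0.976), Ascc2 (0.956) and Ppp1r9b (0.951). Without the 2 mice farthest from the median of the Siglec gene, the r values lay between 0.820 and 0.995. Among the Siglec genes themselves, Siglec1 and Siglece varied most alike (r = 0.842 over the 8 mice), and Siglece and Cd33 had r = 0.442.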

How the data were processed

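CD11c-positive spleen cells of 4 mice per strain were sequenced. Per the labels and methods, the authors used cutadapt for trimming, STAR for alignment (mm10) and featureCounts for counting; versions, strand setting and annotation release were not given in the sources used here. The deposited counts are raw, and in every gene the larger strain median was at least 5. The table also holds the authors' own DESeq2 comparison (fold changes, p-values), which was not used. In 19 rows a gene symbol stored as a date was set back to the symbol.

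Counts were scaled by TMM and compared with edgeR 4.0.16 in R 4.3.3 (quasi-likelihood F test, Benjamini-Hochberg over 13786 genes, no filter). The standard error is the size of the log2 fold change divided by the square root of F. Log2 CPM used a prior count of 2. Ratios to marker lists were tested by exact two-sided permutation and adjusted over 10 pairs. Replicates are mice with separate labels. The fit was tested on simulated data with known changes, where it recovered most of them and made clearly more false calls than the nominal rate. Exon lengths are from GENCODE M21 and sequences from RefSeq.

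Members, lists and tests were chosen with earlier results of these data known. Beside the members, the rule named, of each list, at most the 3 highest and 3 lowest log2 fold changes among genes that passed, the signalling partners Tyrobp, Ptpn6, Lyn, Inpp5d and Syk, the table genes next to each member, and the 3 genes most like each member among those with a mean of at least 5 CPM. St3gal2, St6gal1, the other genes of the chromosome 7 cluster and all list genes given with a value that did not pass were named after their values were seen.

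Alternatives were relative log expression factors, a filter of 10 counts per mouse, a replicate block, limma-voom (limma 3.58.1), DESeq2 1.42.0, the mean log2 CPM of the marker lists, and each mouse left out.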

Additional observations from a re-analysis of the deposited data

Results flagged for a closer look

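In 3 of 34 groups of 4 mice, 1 mouse lay far from the others, by Dixon's criterion at the 95% level, where chance gives about 1.7. Siglec1 was at 7.02 log2 CPM in C57BL/6 mouse 3 (median of the strain 6.68). Siglecg was at 7.32 log2 CPM in B6.SLE123 mouse 1 (median 7.73). The log2 ratio of Siglecg to the B cell markers was -1.19 in C57BL/6 mouse 3 (median -0.95).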

How the results depend on the processing

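All 7 Siglec genes kept their direction and an adjusted p below 0.05 in all 13 alternative fits, the 8 that left out a mouse included. Across these fits the log2 fold change ranged from -1.99 to -1.62 for Siglec1, -0.69 to -0.49 for Siglece, -1.06 to -0.73 for Siglecf, -0.71 to -0.58 for Siglecg, 0.32 to 0.54 for Siglech, 1.99 to 2.14 for Cd33 and 0.31 to 0.37 for Cd22. With the replicate block, 7 Siglec genes and 7183 of all genes passed, against 7356 without it. Same-numbered mice had correlations of 0.0763 to 0.237 in their deviations, and not every mouse correlated best with its own number, so the numbers were not taken as pairs. Without each mouse in turn, 32 to 36 genes of the context lists passed.

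With the mean of log2 CPM as summary of the marker lists, Siglece reversed to -0.47 (neutrophil) and -0.055 (monocyte). The adjusted p rose to 0.0571 by exact permutation for Siglec1 with red pulp (0.47), Siglech (0.79), Cd22 (0.93) and Cd33 (2.19 with neutrophil, 2.60 with monocyte markers). Their unadjusted p stayed at 0.0286, the lowest possible. The adjusted p rose because fewer of the 10 pairs then reached that lowest value. The adjusted p was 0.929 for Siglec1 with marginal zone markers (0.10) and 0.943 for Siglecf (0.015), both by exact permutation. Depth limits Siglecf, with 19 to 70 counts per mouse. With at least 10 counts in every mouse, 3 neutrophil markers passed instead of 6. Of the type 2 dendritic cell markers, 6 passed with the replicate block and 5 with DESeq2 or without B6.SLE123 mouse 1, instead of 3, and of the T cell markers 4 passed without that mouse instead of 2. The count filter tests fewer genes; the cause of the other differences was not tested.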
